A study of Canis lupus familiaris with 222 samples.

Results

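Malignant canine mammary tumors (CMTs) of 26 dogs that died within 1 year (short survivors) were compared with those of 42 dogs followed for longer (long survivors). These 68 tumors were taken from the 122 malignant tumors among 158 tumors and 222 libraries of the series, which also holds adjacent normal mammary tissue of 64 dogs. Status and survival time came from the clinical table of the study. A short survivor was dead by the last day of that year, and a long survivor had a longer survival time, whether alive or dead at its end, so 33 of the long survivors were censored and 9 died later. The other 54 malignant tumors belonged to neither class, because 43 dogs were censored within the year and 11 had no survival time. The short survivor nearest the limit died 39 days before it, on day 326, and the nearest long survivor died 9 days after it. Both had a grade 3 tumor. The sample labels give another record for this long survivor, CMT-471, with death within the year.

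CMTs arise spontaneously in the mammary glands of female dogs and share much of their histology with human breast cancer. A simple carcinoma is built of 1 epithelial cell type, a complex carcinoma of luminal epithelial and myoepithelial cells together, and a carcinoma in a benign mixed tumor also holds cartilage or bone. Histological grade summarizes how far a tumor has lost its tubules, how irregular its nuclei are and how often its cells divide, and a higher grade is known to go with a worse outcome. Here the question was which transcript levels differed between the primary tumors of dogs with a short and a long survival, and what was left of the difference between tumors of equal grade.

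All 68 dogs were female, the labels name no treatment, and each dog gave 1 tumor. Short survivors were older, with ages from 10 to 19 years and a median of 14 years in the 24 dogs with a stated age, against 5 to 16 years and a median of 12 years in the 42 long survivors. The means differed by 2.45 years (13.8 against 11.4 years, two-sided permutation test, p = 3e-04). Of the short survivors, 15 were labelled intact and 10 neutered, against 28 and 14 of the long survivors. Breed had 11 different label entries among short and 10 among long survivors, and it was not a covariate in any fit. The labels give another survival record for some dogs. By the labels' own status and days, 22 of the 26 short survivors and 26 of the 42 long survivors kept their class, 4 short survivors and 1 long survivor changed sides, and 15 long survivors had no class. The labels also call 4 of the long survivors' tumors benign, and without these 4 the comparison below called 25 genes in place of 37. With the survival of the labels, ENSCAFG00000017965, 1 of the 4 genes named below, was called (−1.56, SE 0.45, limma, adjusted p = 0.0421), and the other three were not. ENSCAFG00000007857 then had −1.57 (SE 0.62, adjusted p = 0.127), ENSCAFG00000015043 1.33 (SE 0.50, adjusted p = 0.113) and ENSCAFG00000000656 1.28 (SE 0.39, adjusted p = 0.0514).

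The classes differed in histology before any transcript was considered. Grade 3 tumors made up 12 of 26 short survivors (46.2%) and 5 of 42 long survivors (11.9%), an odds ratio of 6.34 (Fisher's exact test, adjusted p = 0.0125 over 4 tables). The remaining short survivors had 11 grade 1 and 3 grade 2 tumors, and the remaining long survivors 29 grade 1 and 8 grade 2 tumors. Lymphatic invasion was recorded in 8 of 26 (30.8%) against 3 of 42 (7.14%, adjusted p = 0.0328, Fisher's exact test). Simple carcinoma was the diagnosis in 61.5% against 35.7% (adjusted p = 0.0634), and osteosarcoma, carcinosarcoma, fibrosarcoma or spindle cell carcinoma, called sarcoma-like below, in 4 against 2 tumors (adjusted p = 0.193, both Fisher's exact tests). Of the tumors with a stated status, 16 of 24 short survivors (66.7%) and 38 of 41 long survivors (92.7%) were estrogen receptor positive (Fisher's exact test, p = 0.0136, a table added after the data were seen). The study's expression cluster NMF3, which was itself derived from the transcriptomes of these tumors, held 7 short and 2 long survivors.

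Gene levels are FPKM values, which count sequenced fragments per transcript length and library size. Differences are given on the scale of log2(FPKM + 1), short minus long survivors, with a standard error (SE). A gene passed the test when its adjusted p was under 0.05 and its difference at least 1 on that scale, that is, a doubling or halving of FPKM + 1. Since the tissue is a mixture of cells, fewer cells of a type and less RNA per cell cannot be told apart in any of these values. Genes appear in the table as Ensembl identifiers with no symbol beside them, so the tissue's defining markers and levels of known mammary, stromal or proliferation markers were not analysed here.

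Without regard to grade, 37 of 14510 genes passed the test (0.255%), of which 4 were higher (0.0276%) and 33 lower (0.227%) in short survivors. Most of the called genes were thus lower in short survivors. This split depended on the 8 dogs dead by day 30, without which 31 genes passed as higher and 80 as lower, and 353 and 350 at any size. Among the 33 lower genes the difference ran from −2.40 to −1.03, with a median of −1.24, and the class means of these genes had a median over genes of 8.55 FPKM in short and of 19.3 FPKM in long survivors. Among the 4 higher genes it ran from 1.07 to 1.93. In 0 of the 37 genes did the classes separate without overlap. For the lower genes, between 19 and 24 of the 26 short survivors (median 22) lay below the median of the long survivors, and for the higher genes 20 or 21 of 26 lay above it. Over all tested genes the median difference was −0.05, and 39.8% of genes had a higher value in short survivors. Without the requirement on size, 15 genes passed as higher (0.103%) and 103 as lower (0.71%), together 0.813% of those tested. Leaving out single dogs moved the count of 37 between 12, without CMT-439, and 58, without CMT-688, both short survivors.

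The most strongly lowered gene was ENSCAFG00000007857. Its level in short survivors ran from 0 through a median of 22.3 to 216 FPKM, and in long survivors from 1.72 through a median of 115 to 1611 FPKM. The classes overlapped up to 216 FPKM, but 22 of 26 short survivors lay below the median of the long survivors, and the highest short survivor remained far under the highest long survivor. The difference was −2.40 (SE 0.57, limma, adjusted p = 0.0274), and it was no longer called without CMT-105 (adjusted p = 0.0594), CMT-439 (0.0569) or CMT-262 (0.0518).

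ENSCAFG00000017965, the second of the lowered genes, was weakly expressed in most short survivors. Its level there ran from 0 through a median of 0.736 to 20.2 FPKM, and 14 of 26 tumors were under 1 FPKM. In long survivors it ran from 0.0522 through a median of 7.54 to 117 FPKM, and 9 of 42 tumors were under 1 FPKM. The classes overlapped at the low end, where both had tumors with next to no signal, while levels above 20.2 FPKM were seen in long survivors and in no short survivor. The difference was −2.02 (SE 0.41, limma, adjusted p = 0.0136).

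Of the raised genes, ENSCAFG00000015043 had the largest difference. It ran from 0.221 through a median of 15.1 to 625 FPKM in short survivors, and from 0.171 through a median of 3.68 to 194 FPKM in long survivors. The lower ends of both classes coincided, and the difference lay among the higher short survivors, of which 20 of 26 exceeded the median of the long survivors. It amounted to 1.93 (SE 0.48, limma, adjusted p = 0.0347). The call was lost without any 1 of 9 dogs, with adjusted p at most 0.0724 (limma, without CMT-105).

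ENSCAFG00000000656 ran from 0.103 through a median of 19.0 to 204 FPKM in short survivors, and from 0.722 through a median of 4.29 to 99.02 FPKM in long survivors. Here 21 of 26 short survivors lay above the median of the long survivors, and 1 long survivor with a grade 1 tumor, CMT-606, reached the range of the highest short survivors. The difference was 1.70 (SE 0.39, limma, adjusted p = 0.0194). It was called in 13 of 23 alternatives. Among those in which it was not were the comparisons without the sarcoma-like tumors (1.31, limma, adjusted p = 0.105) and with censored long survivors alone (1.76, limma, adjusted p = 0.0527).

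**Figure D1:**
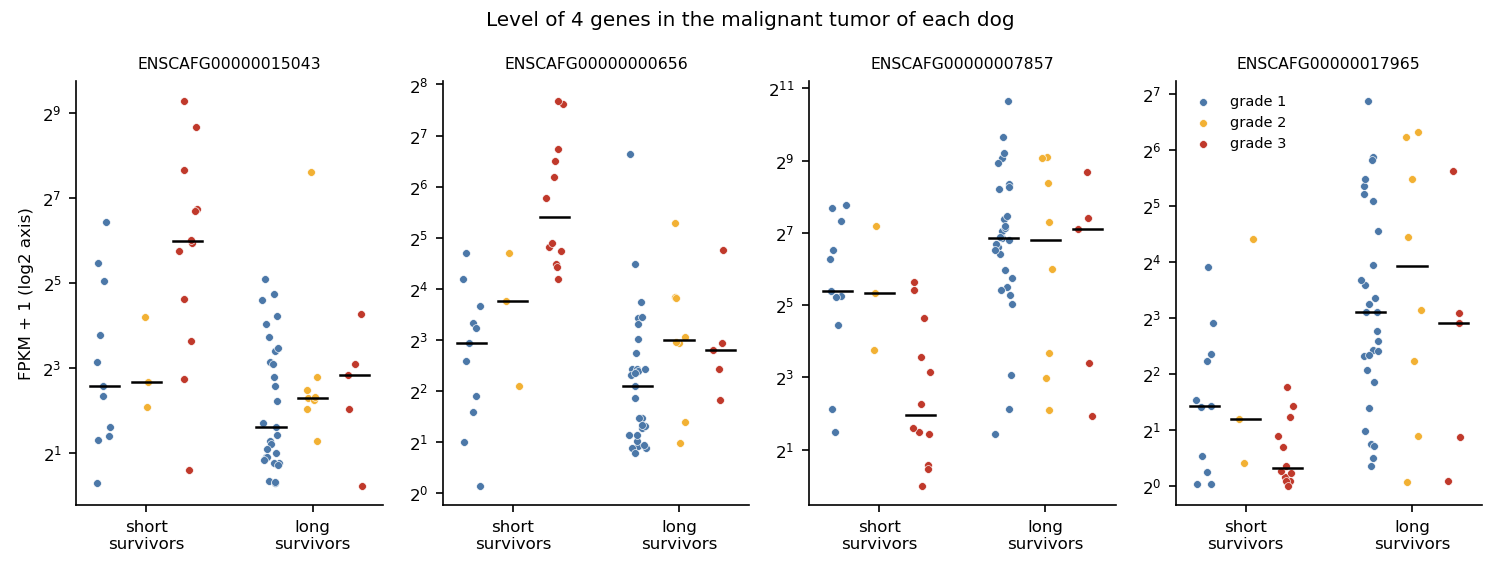
Level of the 4 named genes (FPKM + 1, log2 axis) in each of the 26 short and 42 long survivors, as 1 point per tumor, colored and arranged by grade 1, 2 and 3 from left to right within each class, with a black line at the median of each grade. The grade 3 tumors of short survivors are the highest group for ENSCAFG00000000656 (median 41.2 FPKM) and the lowest for ENSCAFG00000007857 (median 2.90 FPKM), while the 5 grade 3 tumors of long survivors lie among the other long survivors.

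Split by grade, the levels showed where the difference was widest. In the 12 grade 3 tumors of short survivors ENSCAFG00000007857 had a median of 2.90 FPKM, with 48.9 FPKM at most. The 5 grade 3 tumors of long survivors ran from 2.79 through a median of 138 to 412 FPKM. The highest of these 5 was CMT-471, a dog that the labels' survival would place among the short survivors. The 11 and 29 grade 1 tumors of short and long survivors had medians of 40.9 and 114 FPKM. ENSCAFG00000017965 followed with medians of 0.243 and 6.50 FPKM in grade 3 and of 1.69 and 7.57 FPKM in grade 1. All 12 grade 3 tumors of short survivors lay below the long survivors' median of both genes. ENSCAFG00000000656 had medians of 41.2 and 6.00 FPKM in grade 3 and of 6.66 and 3.28 FPKM in grade 1, and ENSCAFG00000015043 of 62.3 and 6.18 FPKM in grade 3 and of 4.97 and 2.05 FPKM in grade 1. In each of these 4 genes the direction was the same in both grades and the distance larger in grade 3.

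Levels of the 33 lower genes were correlated with each other across tumors, and other gene pairs were not examined for comparison. Across the 54 malignant tumors of neither class, the 528 pairs among the 33 lower genes had a median Pearson correlation of 0.40, with an interquartile range from 0.28 to 0.51, and ENSCAFG00000007857 and ENSCAFG00000017965 had a correlation of 0.65 (these points share library depth and cell mixture, and the values are descriptive). Counted for each tumor, a median of 31 of the 33 genes was below the long survivors' median in short survivors, with a range from 7 to 33. In long survivors the median was 16, with a range from 0 to 31. At least 30 of the 33 genes were below it in 15 of 26 short survivors and in 1 of 42 long survivors. Of these 15 short survivors 11 had a grade 3 tumor, out of 12 such tumors in all, and 0 of the 5 grade 3 tumors of long survivors reached that count. These counts use the tumors on which the genes were called, so they describe the classes and do not test them.

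Tumors that had no part in the call were counted in the same way. In the 43 malignant tumors of dogs censored within the year the median was 23 of 33 genes, and 9 tumors had at least 30. In the 35 benign tumors it was 22, also between the classes, and in the 11 malignant tumors without a survival time it was 14, below that of the long survivors. Adjacent normal tissue had a median of 29 genes below that level in the 11 short survivors and of 26 in the 18 long survivors with such tissue. Both lay nearer to short than to long survivors, on a count that takes the long survivors' own median as its mark. The 35 dogs of neither class with both tissues included dogs with benign tumors. In them, 28 of the 33 genes were higher in tumor than in normal tissue (84.8%). The share was 58.4% over all genes tested in both comparisons. Of the 33 genes, 14 (42.4%) passed the test of that comparison as higher, against 1.28% of all genes tested in both. Of the 4 genes called higher in short survivors, 1 was higher and 3 were lower in tumor than in normal tissue, with a median of −0.43.

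**Figure D2:**
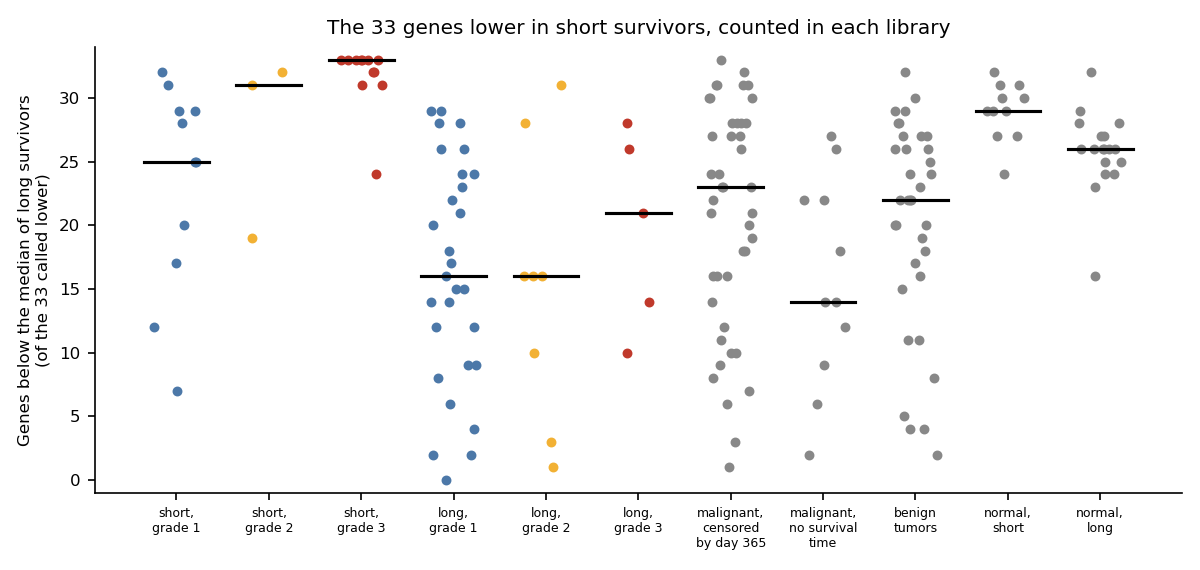
Number of the 33 genes lower in short survivors that lie below the median of the long survivors, in 1 point per library, for each class and grade (colored) and for malignant tumors of neither class, benign tumors and adjacent normal tissue (gray), with a line at the median. Nearly all grade 3 tumors of short survivors lie at 30 to 33 genes, the long survivors spread from 0 to 31, and normal tissue lies mostly above 20.

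With grade as a covariate, 0 of 14510 genes passed the test in limma, with or without the requirement on size. The lowest adjusted p was 0.444, and 788 genes had an unadjusted p under 0.05 (5.43%), against 2162 genes (14.9%) without the covariate. All 37 genes kept their direction, each with an unadjusted p under 0.05, but at a smaller size: the median difference of the 33 lower genes was −0.95 and that of the 4 higher genes 0.96. They were called on these same tumors, so neither the shared direction nor these p-values are separate evidence. ENSCAFG00000017965 went from −2.02 to −1.71 (SE 0.44, adjusted p = 0.444), ENSCAFG00000007857 from −2.40 to −1.69 (SE 0.58, adjusted p = 0.695), ENSCAFG00000015043 from 1.93 to 1.36 (SE 0.49, adjusted p = 0.759), and ENSCAFG00000000656 from 1.70 to 1.05 (SE 0.36, adjusted p = 0.695). A difference between tumors of equal grade was thus not shown for any gene in these 68 tumors, which is not evidence that there was none.

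Within grade 3 alone, 12 short survivors against 5 long survivors gave 0 genes past the test in limma and 977 genes with an unadjusted p under 0.05 (6.83%). The 33 lower genes were all lower there, with a median of −1.75, and the 4 higher genes all higher, with a median of 2.61. Within grade 1, 11 against 29 tumors gave 0 of 14406 genes in limma, and 3.18% had an unadjusted p under 0.05. Again all 33 were lower and all 4 higher, with medians of −0.62 and 0.45. All of these tumors also entered the call itself, so the shared direction is no separate evidence. The difference between both grades in the survival effect was tested as an interaction, in which 0 genes passed in limma and 1175 had an unadjusted p under 0.05 (8.11%). For ENSCAFG00000000656, 2.72 (SE 0.59) in grade 3 and 0.46 (SE 0.46) in grade 1 gave an interaction of 2.26 (SE 0.81, adjusted p = 0.414), so the wider distance in grade 3 was not shown to differ between the grades.

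Grade differences in other dogs ran in the same direction as the survival difference. Among tumors of neither class, 11 grade 3 tumors against 31 grade 1 tumors called 0.735% of 14422 genes higher and 63 genes (0.437%) lower in grade 3. Of the genes higher in grade 3, 92 were also higher in short survivors and 14 were lower (86.8% higher, against 39.8% of all genes), with a median of 0.31. Of the 63 genes lower in grade 3, 1 was higher and 62 were lower in short survivors, with a median of −0.69. With grade as a covariate these medians were 0.26 and −0.23, and the gene-wise Pearson correlation between the grade and the survival difference went from 0.48 to 0.31 over 14226 genes, which are not independent. All 4 genes called higher in short survivors were also higher in grade 3, and 3 of the 33 called lower were among the 63. ENSCAFG00000007857 was one of these 3, with −3.19 (SE 0.81, adjusted p = 0.0225) between grade 3 and grade 1 of these other tumors, and ENSCAFG00000000656 rose in grade 3 by 2.12 (SE 0.37, adjusted p = 0.000897). ENSCAFG00000017965 differed there by −1.17 (SE 0.61, adjusted p = 0.282).

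**Figure D3:**
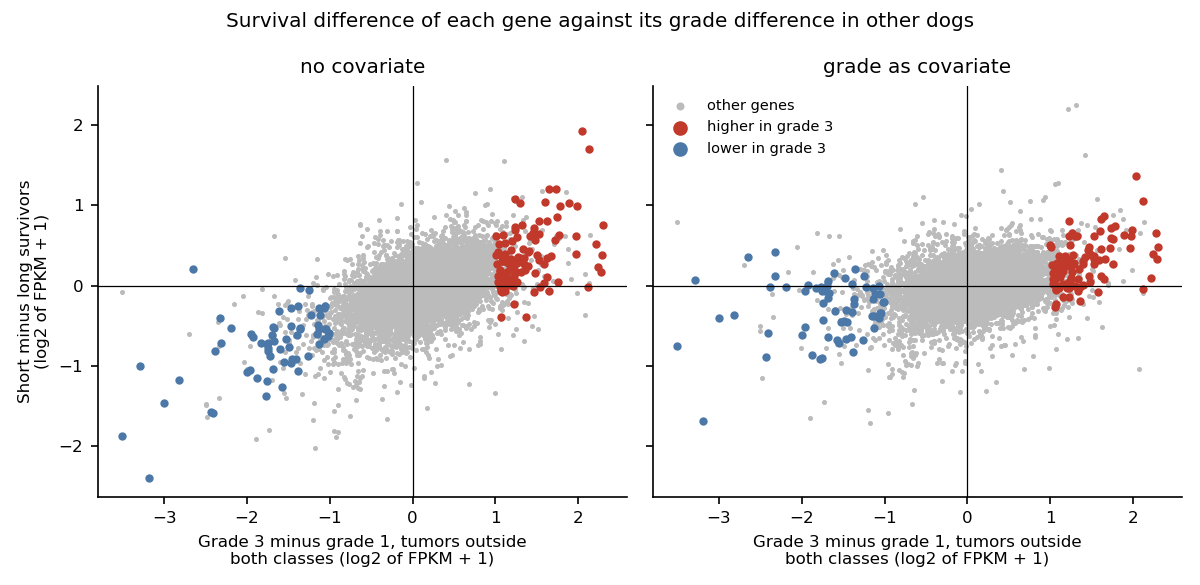
Survival difference of each gene (short minus long survivors, log2 of FPKM + 1, vertical axis) against its difference between 11 grade 3 and 31 grade 1 tumors of neither class (horizontal axis), without a covariate on the left and with grade as a covariate on the right. The genes higher in grade 3 (red) lie mostly above the horizontal zero line and the 63 lower genes (blue) below it, and both draw closer to that line on the right, where the medians are 0.26 and −0.23.

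The transcripts of cluster NMF3 and those that part tumor from normal tissue were followed in the same way. NMF3 tumors outside both classes (9 against 71 of clusters NMF1 and NMF2, benign tumors included) had 570 genes higher (3.94%) and 3.17% of 14465 genes lower. In short survivors the 556 measured higher genes had a median difference of 0.16, 70.1% of them above 0 against 39.8% of all genes. The lower genes had a median of −0.25, with 84 above and 375 below 0 (18.3% above). With grade as a covariate these medians were 0.16 and −0.04. Without the 9 NMF3 tumors and without the covariate, the medians of the higher and lower genes were −0.08 and 0.06, against −0.01 over all genes. Without the sarcoma-like tumors they were −0.02 and −0.12, against −0.05 over all genes. The median of the higher genes was thus below 0 in both settings. It was under the median of all genes only without the NMF3 tumors. In the 35 dogs of neither class (benign tumors included), 182 genes were higher in tumor than in normal tissue (1.24%) and 479 lower (3.27%). The 182 higher genes had a median of −0.40 in short against long survivors, 25.8% of them above 0 against 39.8% of all genes. With grade as a covariate their median was −0.22. The 425 measured lower genes had medians of 0.04 and 0.11. ENSCAFG00000007857 was among the former, with tumor minus normal tissue at 4.12 (SE 0.40, adjusted p = 2.05e-08), and ENSCAFG00000017965 as well, at 1.93 (SE 0.30, adjusted p = 1.32e-05).

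Both raised genes named here had high levels in the NMF3 tumors of short survivors. ENSCAFG00000015043 ran from 17.4 through a median of 64.1 to 625 FPKM in these 7 tumors, and the 2 NMF3 tumors of long survivors had 0.262 and 1.44 FPKM. ENSCAFG00000000656 ran from 12.6 through a median of 53.6 to 204 FPKM, against 1.03 and 3.28 FPKM. The 4 sarcoma-like tumors of short survivors had medians of 84.6 and 62.7 FPKM of these genes, and CMT-105, an NMF2 tumor, had 408 FPKM of ENSCAFG00000015043. Neither gene overlapped between the classes within this cluster, with 2 long survivors only. Both genes were called with these tumors included, and the share of all genes without overlap in this split was not determined. The separation is thus a description and no test. Without all 9 NMF3 tumors the survival difference of ENSCAFG00000015043 was 1.02 (SE 0.49, limma, adjusted p = 0.421) and that of ENSCAFG00000000656 was 1.08 (SE 0.40, limma, adjusted p = 0.256). Of the lowered genes, ENSCAFG00000007857 had −2.63 (SE 0.63, limma, adjusted p = 0.0785) and ENSCAFG00000017965 −2.09 (SE 0.46, limma, adjusted p = 0.0742) without these tumors, and neither passed the test.

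In normal tissue no difference between the classes was shown. With 11 short and 18 long survivors, 0 genes passed the test in limma and 2115 had an unadjusted p under 0.05 (14.5%), and the median over all genes was −0.10. ENSCAFG00000007857 had a median of 3.47 FPKM in normal tissue of short survivors and 3.54 FPKM in that of long survivors, and its difference was 0.24 (SE 0.58, adjusted p = 0.843). For tumor minus own normal tissue, paired by dog, 0 genes differed between the classes in limma, and 1325 had an unadjusted p under 0.05 (9.03%). Without the pairing the count was also 0, with 900 such genes. All 33 lower genes had a lower tumor minus normal difference in short survivors, with a median of −1.08. Of all genes tested in both comparisons, 6268 of 14306 were lower. These tumors also entered the call itself, so the shared direction is no separate evidence. ENSCAFG00000007857 had −3.29 (SE 1.12, adjusted p = 0.374) and ENSCAFG00000017965 −2.13 (SE 0.70, adjusted p = 0.356).

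Among short survivors, 8 dogs died by day 30 and 18 later in the year. The 8 had 5 grade 1 and 3 grade 3 tumors, the 18 had 6, 3 and 9 tumors of grades 1 to 3. Without the 8 dogs the number of genes past the test was 111 (0.764%), 31 higher (0.213%) and 80 lower (0.551%), and 35 of the 37 genes were among them (94.6% of the 37 and 31.5% of the 111). Without the requirement on size it was 703 (4.84%), 353 higher and 350 lower, and 21.8% of genes had an unadjusted p under 0.05. For ENSCAFG00000015043 the dogs dead by day 30 had a median of 3.52 FPKM, near the 3.68 FPKM of the long survivors, while those that died later had 20.5 FPKM. For ENSCAFG00000007857 the medians were 44.9 and 11.7 FPKM, against 115 FPKM in long survivors. ENSCAFG00000000656 had medians of 14.8 and 19.3 FPKM, against 4.29 FPKM, and ENSCAFG00000017965 of 1.28 and 0.527 FPKM, against 7.54 FPKM. Of the 8 dogs dead by day 30, 4 lay above the long survivors' median of ENSCAFG00000015043 and 7 above that of ENSCAFG00000000656. For ENSCAFG00000007857 6 lay below it, and for ENSCAFG00000017965 all 8 did. A direct comparison of the 8 with the 18 gave 0 genes in limma, with 2275 at an unadjusted p under 0.05 (15.8%), and with grade as a covariate 0 genes as well, with 2973 (20.6%). The tumors of both were thus not shown to differ. With grade as a covariate and without these 8 dogs the lowest adjusted p was 0.0579, and 0 genes passed in limma, with 1661 at an unadjusted p under 0.05 (11.4%). In grade 3 without them, 9 against 5 tumors gave 28 genes (0.196%), 3 higher and 25 lower, of which 6 were among the 37. The mapping rate was lower in dogs dead by day 30 than in the other short survivors (two-sided permutation test, adjusted p = 0.00312 over 4 library measures). With mapping rate as a covariate the comparison of all 68 tumors again called 37 genes, 31 of them the same. All of these fits reuse tumors of the call, so the shared genes are no separate evidence.

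**Figure D4:**
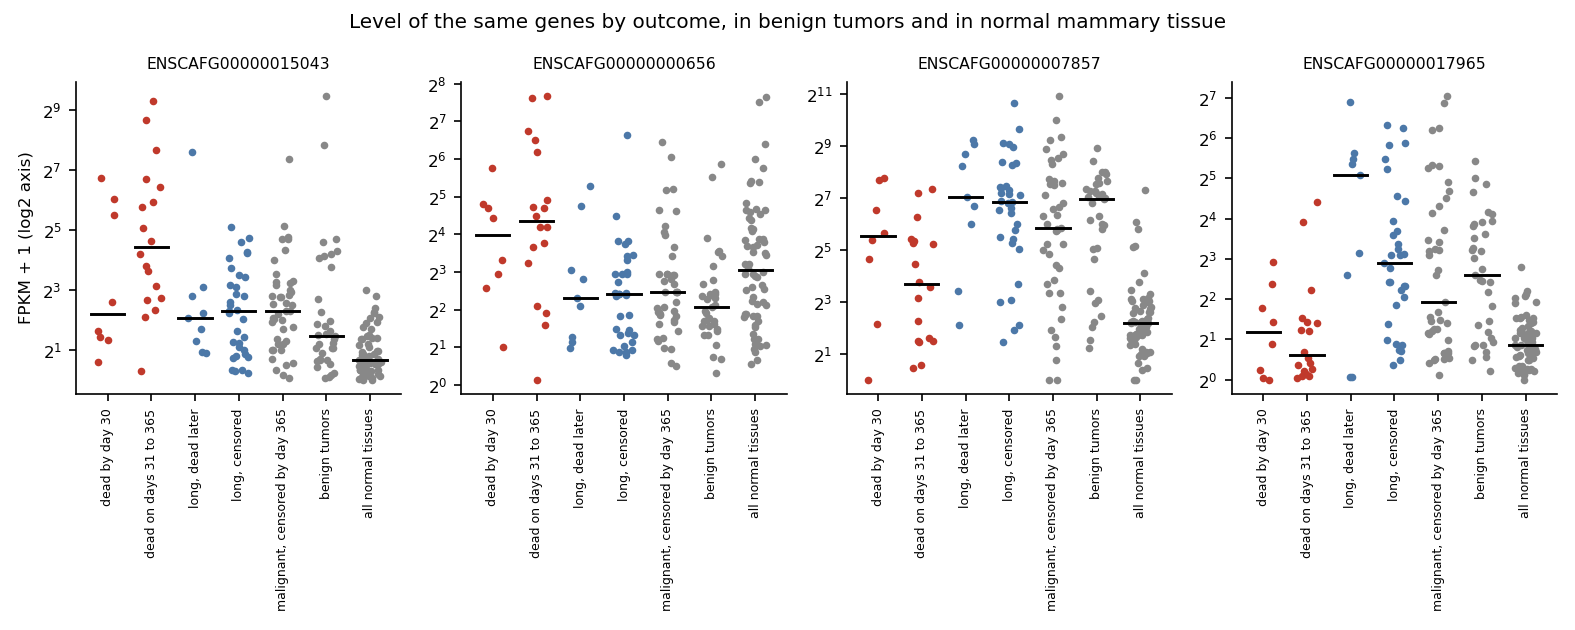
Level of the 4 named genes (FPKM + 1, log2 axis) by outcome, with 1 point per library and a line at the median: short survivors dead by day 30 (8) and later in the year (18) in red, long survivors dead later (9) and censored (33) in blue, and malignant tumors censored within the year (43), benign tumors (35) and normal tissue (64) in gray. ENSCAFG00000007857 is low in normal tissue (median 3.47 FPKM), and its medians in long survivors that died later (131 FPKM) and in censored ones (114 FPKM) lie close together.

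Long survivors that died later had medians near or beyond those of the censored ones, away from the short survivors, a comparison that was not tested. The 9 dogs had medians of 131 FPKM for ENSCAFG00000007857 and 33.2 FPKM for ENSCAFG00000017965, against 114 and 6.50 FPKM in the 33 censored dogs. For ENSCAFG00000015043 and ENSCAFG00000000656 the medians were 3.13 and 3.97 FPKM, against 3.86 and 4.34 FPKM. In the 43 malignant tumors censored within the year, ENSCAFG00000007857 had a median of 56.8 FPKM and ENSCAFG00000017965 of 2.81 FPKM, between both classes, whereas ENSCAFG00000015043 (3.92 FPKM) and ENSCAFG00000000656 (4.52 FPKM) were near the long survivors. When survival time was used in full, in a Cox regression over 111 malignant tumors with 35 deaths, 3 genes passed (adjusted p under 0.05), all with a higher hazard at a higher level, and 2 of them were among the genes called at any size above. At an unadjusted p under 0.05 there were 1703 genes (11.7%). All 37 genes had the same direction in that regression, which includes all tumors of the call, so this is no separate evidence. With grade as a covariate in the Cox regression 0 genes passed, with 5.33% of 14557 genes at an unadjusted p under 0.05.

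The number of genes that passed depended on what else was taken into account, as the plot of counts by setting shows. Age, which moved with the classes, took the count from 54 (0.372%) in the 66 dogs with an age to 2 (0.0138%), both lower. Of the named genes, ENSCAFG00000017965 had −1.86 (SE 0.48, limma, adjusted p = 0.0892) with age as a covariate and ENSCAFG00000007857 −1.68 (SE 0.64, limma, adjusted p = 0.219). Lymphatic invasion or histology group as a covariate gave 0 genes in limma, with 1281 and 1186 genes at an unadjusted p under 0.05, as did the 48 tumors with the same class in the clinical table and the labels, with 2265. Without the 9 NMF3 tumors 1 gene passed (0.00692%), and without the 6 sarcoma-like tumors 15 did (0.104%), all lower. With surgery year as a covariate the count was 68 (0.469%). Within 2016 and 2017 alone it was 2 (0.0138%) and 32 (0.221%), and within 2018 it was 0 in limma, with 1.15% of genes at an unadjusted p under 0.05. The survival of the labels gave 22 genes (0.151%), of which 13 were among the 37 (59.1% of the 22 and 35.1% of the 37). All 37 genes kept their direction under each of these settings except in 2018, with 3 short and 4 long survivors, where 31 did. These settings reuse tumors of the call, so the shared direction is no separate evidence. Neither grade, age, invasion nor histology can be fully told apart from survival in these dogs.

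**Figure D5:**
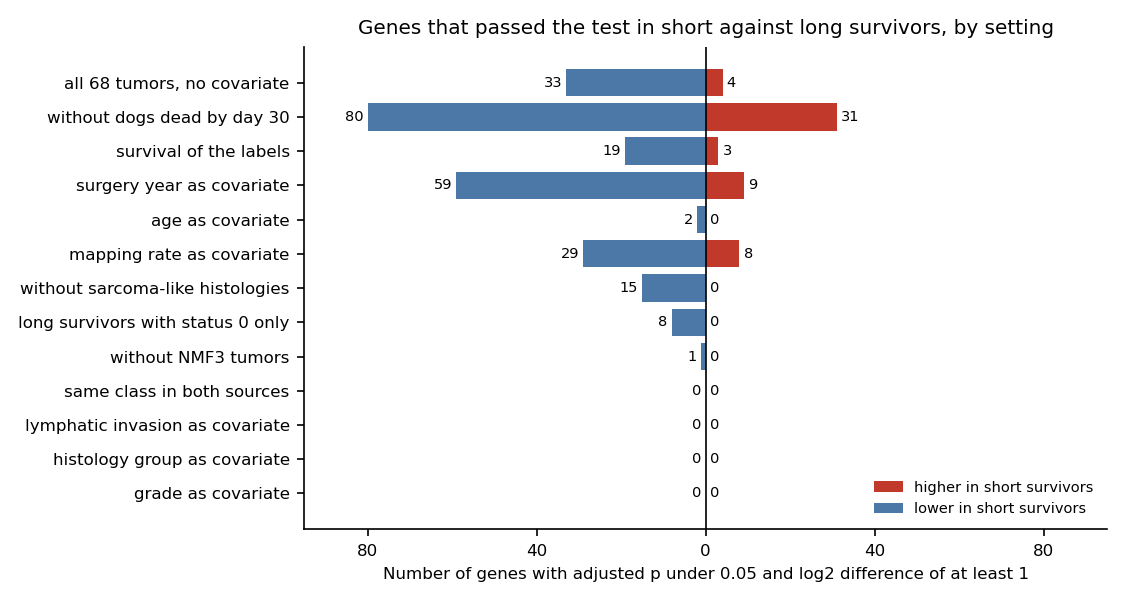
Number of genes with an adjusted p under 0.05 and a difference of at least 1 on the log2(FPKM + 1) scale between short and long survivors, lower to the left and higher to the right, for all 68 tumors and for 12 other settings. The count is 37 for all tumors, 111 without dogs dead by day 30, 2 with age as a covariate and 0 with grade, lymphatic invasion or histology group as a covariate.

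As a whole, the transcriptomes of the classes overlapped. The first principal component held 17.8% of the variance and did not separate them (two-sided permutation test, adjusted p = 0.366 over 5 components), and 13 of 26 short survivors lay above the median of the long survivors. The third, with 8.02% of the variance, had the lowest adjusted p (0.0485, two-sided permutation test), with 17 of 26 short survivors above the long survivors' median. It was not called with a pseudocount of 0.1 (adjusted p = 0.0601) or with a mean of at least 1 FPKM (adjusted p = 0.0570, both permutation tests). When classes were permuted within grade its adjusted p was 0.335. Of the library measures, the 10 most abundant genes took a median of 20.7% of the summed FPKM in short survivors, from 14.2% to 46.7%, and of 19.5% in long survivors, from 12.3% to 25.5% (two-sided permutation test, adjusted p = 0.0413 over 4 measures, and 0.198 when permuted within grade). Genes at 1 FPKM or more numbered from 9955 to 12953 in short and from 11222 to 13144 in long survivors (adjusted p = 0.0857, two-sided permutation test).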

How the data were processed

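Poly(A) RNA of mammary tumors and adjacent normal mammary tissue was sequenced on an Illumina HiSeq instrument. Per the submitters' processing notes and the study's methods, the authors mapped reads with TopHat2 2.0.9 to CanFam3.1 with Ensembl annotation and deposited FPKM values of Cufflinks 2.1.1, with 1 column per library and 24580 gene identifiers. These are not counts, so read numbers per gene are unknown, and no interval based on depth is given.

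Tumor or normal tissue came from the sample labels, which also pair both tissues of a dog. Grade, histology, lymphatic invasion, NMF cluster, status and survival time came from the study's clinical table. Mapping rates came from its sequencing table. The members and lists were chosen with earlier results of these data known. Sample numbering by dog pairs tumor and normal tissue because both come from 1 animal.

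FPKM + 1 was log2-transformed and compared with limma 3.58.1 (R 4.3.3), letting the prior variance follow the mean level. Genes entered a fit if their mean there reached 0.5 FPKM, and p-values were adjusted by Benjamini-Hochberg over every gene that entered. Tumor minus own normal tissue was fitted on the differences within dogs. Survival was also fitted by Cox regression per standard deviation of a gene (survival 3.8.3). Permutation tests used 100000 resamples, which limits p to 1e-05 or more. Principal components were taken of centered log2(FPKM + 1) values. The fit and the permutation test were tested on simulated data. Gene lists (grade 3 against grade 1, NMF3 against NMF1 and NMF2, tumor against normal) were called only in tumors and dogs of neither class. The NMF3 list and the list of tumor against normal tissue included benign tumors.

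Named were the 2 genes in each direction with the largest difference among called genes with a mean of at least 5 FPKM in the higher class. Because the identifiers could not be paired with names, symbol lists, marker lists and the mitochondrial share were not analysed here. In the table, 33 identifiers above 0 duplicate another row of values, and 0 of the called genes are among them. Alternatives were another pseudocount, filter or scaling, further covariates, subsets of dogs, the labels' own survival and the omission of each dog in turn. A p-value over dogs sets a class difference against the spread between their tumors. Since each dog gave 1 tumor, spread within a dog cannot be told apart from spread between dogs.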

Additional observations from a re-analysis of the deposited data

Results flagged for a closer look

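In 16 checks of small groups (the 4 named genes in long survivors of grade 3, of grade 2 and dead later, and in dogs dead by day 30), a single tumor was picked out in 2, both times the same one. The grade 2 tumor of the long survivor CMT-148 had 194 FPKM of ENSCAFG00000015043. The next highest was 5.96 FPKM among the 8 grade 2 tumors of long survivors and 7.55 FPKM among the 9 long survivors that died later. The gap to the nearest tumor exceeded the 95% critical value of Dixon's test in both groups, and chance picks out about 1 group in 20. Without CMT-148, 53 genes passed in short against long survivors in place of 37, and without the size requirement 1.53% of the genes tested in place of 0.813%.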

How the results depend on the processing

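Values are the share of genes tested that passed between short and long survivors, with a difference of at least 1 (0.255% over all 68 tumors) and of any size (0.813%). The count moved by over 1.5 times to 0.772% and 1.41% with a pseudocount of 0.1, 0.469% and 2.14% with surgery year, and 0.764% and 4.84% without dogs dead by day 30. It moved to 0% and 0% with lymphatic invasion, with histology group, with the same class in both sources and within 2018. It moved to 0.0138% and 0.0138% with age and within 2016, 0.104% and 0.297% without sarcoma-like tumors, 0.00692% and 0.0138% without NMF3 tumors, 0.0550% and 0.117% with censored long survivors alone, 0.151% and 2.57% with the survival of the labels, and 0.593% and 2.96% without early deaths and sarcoma-like tumors. The share of any size alone moved to 0.366% without a filter, 1.41% with upper quartile scaling, 1.26% with mapping rate, 0.311% within 2017, 0.0206% in Cox regression and 1.65% in the dogs with an age. Within grade 3 it became 0.196% and 0.196% without dogs dead by day 30. The cause of these moves was not tested. The alternatives by age, within a surgery year, within grades without early deaths, without NMF3 tumors for the gene lists and with 2 exclusions together were chosen after seeing the data.

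Leaving out each dog in turn gave 0.0826% to 0.400% of genes (0.234% to 1.78% of any size). The count of 37 became 12 without CMT-439, 13 without CMT-105, 14 without CMT-318, 17 without CMT-262, 18 without CMT-581, 19 without CMT-193, 20 without CMT-340, 22 without CMT-153, CMT-523 or CMT-184, 23 without CMT-009 or CMT-459, and 58 without CMT-688. The share of any size moved by over 1.5 times without these 13 dogs (0.234% to 0.476%, and 1.78% without CMT-688) and 18 others. It fell to 0.427% without CMT-072, 0.469% without CMT-332, 0.476% without CMT-724, 0.489% without CMT-440, 0.503% without CMT-278 and 0.531% without CMT-381. It rose to 1.24% without CMT-436, 1.25% without CMT-259, 1.29% without CMT-400 or CMT-112, 1.32% without CMT-197 or CMT-725, 1.35% without CMT-606 or CMT-231, 1.43% without CMT-257, 1.53% without CMT-148, 1.55% without CMT-365 and 1.75% without CMT-233. ENSCAFG00000015043 was not called without CMT-009, CMT-105, CMT-153, CMT-184, CMT-318, CMT-332, CMT-340, CMT-439 or CMT-581 (adjusted p 0.0515 to 0.0724 in limma), and ENSCAFG00000000656 and ENSCAFG00000017965 stayed called without each dog. Within 2018, ENSCAFG00000015043 was at −0.032, the 1 named value that changed direction.

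With grade as a covariate the count was 0 in limma under every alternative run and without each dog, with 576 to 1786 genes at an unadjusted p under 0.05 over the alternatives. The third principal component lost its call with a pseudocount of 0.1 (difference 21.0, adjusted p 0.0601, permutation test) and with a mean of at least 1 FPKM (15.9, adjusted p 0.0570, permutation test). Without the replicate block, tumor minus normal tissue gave 0 genes in limma (900 at an unadjusted p under 0.05), as with it (1325). Read depth per gene is unknown, so low levels such as those of ENSCAFG00000017965 carry an unknown counting error.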
